A study of Marchantia polymorpha with 12 samples.

Results

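The 122 genes described here, of 18336 in the table, lay at least 2.5 times as high or at most 0.4 times as high in the Mpmri-1-labelled libraries as in their wild type. In the other mutant line, Mpfer-1, they stayed within a fixed window around its own wild type. On library totals, most of their Mpfer-1 means lay on the same side of wild type, at the smaller distance the window required. The genes were chosen by measured values, the group means of CPM (a gene's count scaled to a library total of 1000000). A gene had to lie on chromosomes 1 to 8, to reach 5 CPM in at least 1 group, to average under 1000 CPM in the wild types and to have a ratio of Tak-2 to Tak-1 between 0.5 and 2. Its Mpfer-1/Tak-1 ratio had to lie strictly between 0.667 and 1.5, and MpMRI itself was left out. Of the members, 24 were higher and 98 were lower in the Mpmri-1-labelled libraries. Because all 4 groups entered the choice, the members' values below are descriptions, and no p-value is given for them.

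The data are 12 libraries of polyadenylated RNA from thalli with rhizoids of the liverwort Marchantia polymorpha, grown from gemmae for 3 weeks on cellophane over agar medium. Each of 4 untreated groups had 3 libraries, lettered A to C. They were Tak-1 (male, wild type), Mpfer-1 (male, knockdown of MpFER according to the labels), Tak-2 (female, wild type) and Mpmri-1 (female, knockdown of MpMRI according to the labels). The labels name 1 line per targeted gene and do not say whether replicates came from separate cultures, so p-values measure only the spread between these samples, which may be technical. Each line was set against the wild type of its own sex, so targeted gene, line and sex cannot be told apart when the 2 comparisons are set side by side.

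MpFER is the single liverwort homolog of FERONIA, a receptor-like kinase at the plasma membrane that, in Arabidopsis, monitors the cell wall during growth. MpMRI is the homolog of MARIS, a cytoplasmic receptor-like kinase that acts downstream of FERONIA-related receptors in Arabidopsis root hairs and pollen tubes. In Marchantia, loss of either function gives short rhizoids that burst. Genes that differ from wild type in a single line are therefore of interest to the question of how far the functions of these kinases overlap.

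The targeted genes check the labels. MpMRI (Mp7g17560) had 248, 257 and 260.1 CPM in Tak-2 and 557.5, 569.6 and 712 CPM in the Mpmri-1-labelled libraries. Its mean was 2.40 times that of Tak-2, although the label gives a knockdown (edgeR log2 fold change 1.40, SE 0.078, adjusted p 4.41e-08). Every direction below that is drawn from those 3 libraries rests on their label. MpFER (Mp4g15890) was measured at 178, 178 and 153 CPM in the Tak-1 libraries and at 121, 102 and 111 CPM in the Mpfer-1 libraries, and the groups did not overlap (edgeR log2 fold change -0.78, SE 0.081, adjusted p 7.2e-06).

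Library totals ran from 25548038 to 35313222 counts. The libraries also differed in composition. The 10 most abundant genes took 8.39% to 10.5% of counts in the Mpmri-1-labelled libraries and 5.99% to 8.85% in the others. Summed CPM of 72 genes with desiccation-related symbols was 5697, 10610 and 2706 in the Mpmri-1-labelled libraries A, B and C, against 1489 to 1575 in Tak-2, 1290 to 1304 in Tak-1 and 10760 to 16440 in Mpfer-1. The trimmed-mean factors that edgeR uses to correct for composition (TMM) ran from 0.798 in the library Mpmri-1 A to 1.19 in Mpfer-1 A. On library totals, which the selection used, the log2 fold changes of all genes tested had medians of -0.13 (Mpmri-1) and 0.20 (Mpfer-1), whereas after TMM the medians were 0.0015 and 0.022.

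This shift bears on the balance of the set. With the same bounds on CPM after TMM, 82 genes were higher and 46 lower, and these held all 24 higher members and 45 of the 98 lower ones. The share of higher genes was 64.1% on that scale, and on library totals it was 24 of 122. The lower genes also depended on single libraries. Without library Mpmri-1 A, 53 genes met the lower bound, and without library Mpmri-1 C, 200 did. The 9 higher and 26 lower members that stayed in the set under TMM, under DESeq2 size factors and without each library in turn included MpNBS-LRR6, MpCYP829-like42, MpCYP818A1, MpC3H33, MpKOL2 and MpGH35.2. MpSMC4, MpBromo8, MpExpansin6, MpERF10, MpGH38.1 and MpNBS-LRR9 were among the 53 lower members that did not stay under both other scalings.

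**Figure D1:**
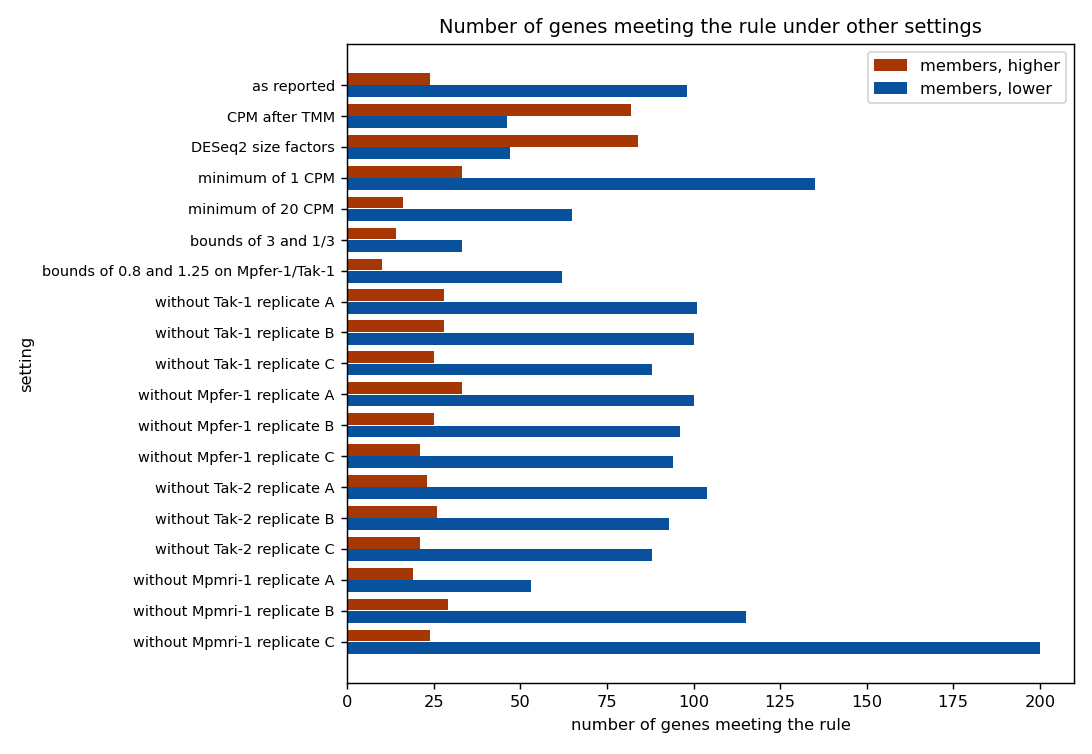
Number of genes meeting the rule (horizontal axis) as reported and under each other setting (vertical axis), split by direction. The higher genes outnumber the lower ones on the 2 scales that correct for composition (82 and 84 against 46 and 47), and the lower count moves between 53 and 200 when an Mpmri-1-labelled library is left out.

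Most genes past the bounds in the Mpmri-1-labelled libraries were past them in Mpfer-1 too. Of 582 genes at 2.5 times Tak-2 or above, 443 reached the same bound in Mpfer-1, the 24 members (4.12%) lay inside the Mpfer-1 window, and the median Mpfer-1/Tak-1 ratio of the 582 was 4.46. Of 480 genes at 0.4 times Tak-2 or below, 247 did so in Mpfer-1, the 98 members (20.4%) lay inside it, and the median ratio was 0.388. The same bounds with the lines exchanged gave 55 higher and 20 lower genes for Mpfer-1 alone. All numbers in this paragraph follow from the bounds and carry no test.

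**Figure D2:**
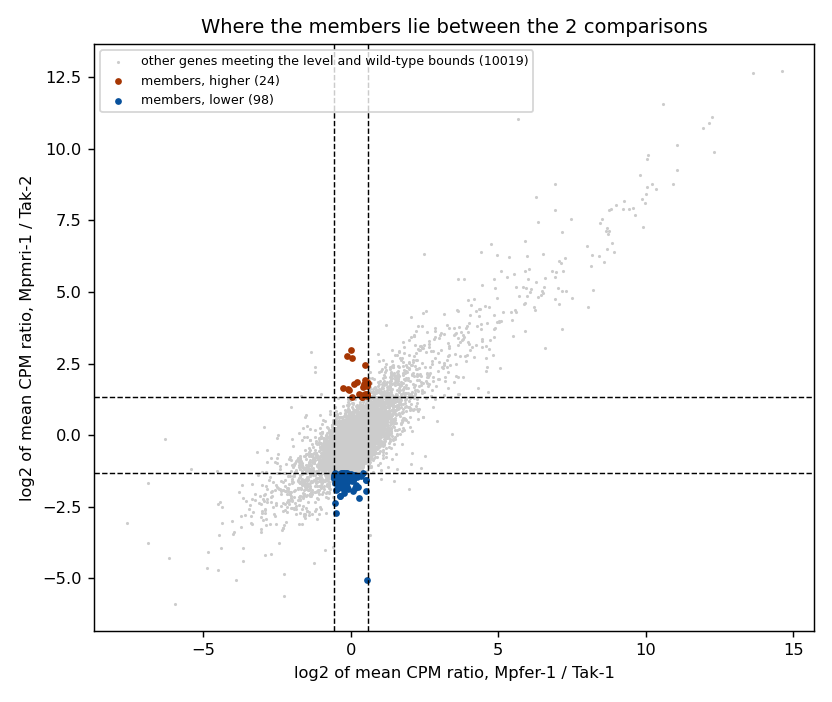
Each point is a gene that met the level and wild-type bounds, placed by the log2 ratio of mean CPM of Mpfer-1 to Tak-1 (horizontal) and of Mpmri-1 to Tak-2 (vertical), and dashed lines are the bounds of the rule. The 24 higher and 98 lower members lie in the centre column, above and below a cloud that runs diagonally.

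The bounds cut through a continuous range. The members nearest the upper bound were Mp7g06870 at 2.502 and Mp5g04450 at 2.52 times Tak-2, and the nearest genes outside were Mp1g03490 at 2.48 and Mp2g24760 at 2.42. At the lower bound, MpExpansin6 (0.399) and Mp3g04800 (0.399) were inside, and Mp3g13850 (0.4004) and MpPKC8 (0.401) were outside. On the Mpfer-1 side, MpFTPSL1 entered at 1.48 times Tak-1 while Mp7g15440, 5.32 times as high in the Mpmri-1-labelled libraries as in Tak-2, was outside at 1.501.

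The edgeR quasi-likelihood test over 14044 genes (adjusted p under 0.05) called all 24 higher members higher in Mpmri-1 against Tak-2, where 33.0% of all genes were called higher. It called all 98 lower members lower, where 31.1% of all genes were. In Mpfer-1 against Tak-1, 6 of the 24 were called higher (29.1% of all genes were) and 51 of the 98 were called lower (27.1% of all genes were), and no member was called in the opposite direction. On library totals the latter counts were 10 higher and 19 lower, with 2 of the lower members called higher. For the difference between the effects, all 24 and 88 of the 98 were called, against 21.0% of all genes in the higher and 16.3% in the lower direction. MpSMC4, MpERF10, MpPOD87, MpPOD32, MpPPO11 and Mp4g20690 were among the 10 lower members not called for the difference. The rule fixed these contrasts, so nothing is read from the counts.

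Library by library, all 24 higher members lay above every Tak-2 library in all 3 Mpmri-1-labelled libraries (27.8% of all genes did), and all 98 lower members lay below (39.1% did). Of the higher members, 19 also lay above all other 9 libraries of the series, as did 4.29% of all genes. Of the lower members, 89 lay below all 9, as did 21.8%. The rule bounded the means of these same libraries in all 4 groups. Most of this separation was therefore built in, and nothing is read from these counts. The Mpfer-1 libraries did not overlap the Tak-1 libraries in 12 of the higher and 44 of the lower members, compared with 70.8% of all genes. The window on Mpfer-1/Tak-1 was set for the members but not for all genes, so nothing is read from their smaller share. The Mpfer-1 mean was above the Tak-1 mean in 20 of the 24 higher members. It was below in 72 of the 98 lower members. Among the 7042 genes that met every bound except that on Mpmri-1, it was above in 67.0% and below in 33.0%. These counts are on library totals. After TMM, the Mpfer-1 log2 fold changes ran from -0.43 to 0.40 (median 0.20) in the higher members. In the lower members they ran from -0.75 to 0.39 (median -0.37).

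Tak-2 had the lower mean in 22 of the 24 higher members and the higher mean in 77 of the 98 lower ones, while among the 7042 genes that met every bound except that on Mpmri-1, Tak-2 was lower in 63.2% and higher in 36.8%. In edgeR's test, 13 of the 24 were called with a lower level in Tak-2 (18.0% of all genes were), and 49 of the 98 were called higher (17.1% were), with 3 called lower. The median ratio of Tak-2 to Tak-1 was 0.640 in the higher members and 1.23 in the lower ones. The Mpmri-1/Tak-2 ratio and this ratio share the Tak-2 libraries, so a low or high Tak-2 value moves both. Against Mpfer-1, the Mpmri-1-labelled libraries were at least 2.5 times as high in 5 of the 24 higher members and at most 0.4 times as high in 32 of the 98 lower members, and the median ratios were 1.72 and 0.482.

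Among the higher members with a symbol, the steepest was MpNBS-LRR6 (Mp3g09200), whose symbol places it among the nucleotide-binding leucine-rich repeat genes, the family of intracellular immune receptors of plants. It had 6.70, 8.58 and 15.0 CPM in the Mpmri-1-labelled libraries and 1.20, 1.45 and 1.24 CPM in Tak-2, a ratio of 7.77. Tak-1 had 0.910, 1.02 and 0.574 CPM and Mpfer-1 1.32, 0.859 and 0.333 CPM, so this gene was at a low level in all 9 other libraries. It met the minimum of 5 CPM only through the Mpmri-1-labelled libraries, so their standing apart was built into its choice.

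Cytochrome P450 genes, which encode oxidases of specialised and hormone metabolism, gave 3 higher members and no lower one. MpCYP829-like42 (Mp8g12170) had 20.2, 16.0 and 22.8 CPM in the Mpmri-1-labelled libraries, 2.48, 2.45 and 3.76 CPM in Tak-2, with 3.29 to 4.93 CPM in the 6 male libraries. MpCYP818A1 (Mp5g22590) had 66.0, 47.4 and 74.0 CPM, compared with 18.3, 17.3 and 23.6 CPM in Tak-2, with 25.1 to 34.3 CPM in the male libraries. In both, the Mpmri-1-labelled libraries stood apart from all others. MpCYP829-like42, too, met the minimum of 5 CPM only through those libraries. MpCYP822-like6 (Mp5g10500), at 57.7, 35.7 and 48.8 CPM against 11.8, 13.1 and 12.6 CPM, overlapped Mpfer-1, which had 28.7 to 37.4 CPM. In the whole family (102 tested, the 3 members included), edgeR called 62 higher and 15 lower in Mpmri-1, and 47 higher and 25 lower in Mpfer-1. Of all genes, 33.0% were called higher and 31.1% lower in Mpmri-1, and 29.1% and 27.1% in Mpfer-1.

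MpGH18.1 (Mp1g22460) carries the symbol of glycoside hydrolase family 18, a family that includes chitinases. It had 28.5, 19.2 and 29.1 CPM in the Mpmri-1-labelled libraries and 4.93, 3.68 and 3.24 CPM in Tak-2, a ratio of 6.48, and 6.52 to 8.04 CPM in the male libraries. MpFTPSL1 (Mp6g04380), a terpene synthase-like gene by its list, had 42.8, 40.5 and 36.04 CPM, compared with 12.1, 11.2 and 10.8 CPM in Tak-2, while Mpfer-1 had 21.3, 22.2 and 19.1 CPM and Tak-1 15.3, 15.0 and 11.8 CPM. Its 4 groups were thus ordered Tak-2, Tak-1, Mpfer-1, Mpmri-1, with Tak-2 and Tak-1 overlapping. MpRLK-Pelle_L-LEC26 (Mp6g03790), of the lectin receptor-like kinases, had 55.5, 54.1 and 68.0 CPM in the Mpmri-1-labelled libraries, 15.7, 15.6 and 18.08 CPM in Tak-2 and 40.5 to 52.0 CPM in Mpfer-1. Here the female wild type was the low group, at 0.5002 times Tak-1.

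MpPIN4 (Mp5g05150), of the PIN family of auxin exporters, had 172, 234 and 218 CPM in the Mpmri-1-labelled libraries and 76.3, 71.5 and 90.2 CPM in Tak-2. Mpfer-1 had 250.0, 197 and 197 CPM and Tak-1 144, 144 and 154 CPM. The 2 mutant lines overlapped (208 ± 32.4 and 214.5 ± 30.8 CPM), and the wild types did not (79.3 ± 9.73 CPM in Tak-2 and 147 ± 5.89 CPM in Tak-1, SD, n = 3). The ratio to Tak-2 was 2.62, the ratio to Tak-1 in Mpfer-1 was 1.45, and the ratio of Mpmri-1 to Mpfer-1 was 0.970. Of 4 PIN genes tested, MpPIN4 included, edgeR called 2 higher and 1 lower in Mpmri-1, and 3 higher and 1 lower in Mpfer-1. The shares of all genes were 33.0% higher and 31.1% lower in Mpmri-1, and 29.1% and 27.1% in Mpfer-1. MpPIN3 was called higher in both lines, with edgeR log2 fold changes of 3.58 in Mpmri-1 and 5.22 in Mpfer-1, and MpPIN2 lower in both, with -0.78 and -0.54. MpPIN1 was called higher in Mpfer-1 alone, at 0.59 against -0.01 in Mpmri-1 (difference -0.61, adjusted p 0.00449).

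Among the higher members without a symbol, Mp7g06720 was the most abundant in the Mpmri-1-labelled libraries, with 937, 659.8 and 698 CPM, compared with 214, 194 and 229.9 CPM in Tak-2. The male libraries had 212 to 345 CPM, so the 3 libraries lay apart from the other 9. Mp3g10710 varied little within groups, at 708.5, 699 and 688 CPM against 256, 256.5 and 255.5 CPM, with 421 to 442 CPM in Tak-1 and 557 to 633 CPM in Mpfer-1. It was a graded pattern in which no 2 groups overlapped. Mp5g12550 (2.70-fold) overlapped Mpfer-1, and Mp6g20890 (2.58-fold) did not.

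**Figure D3:**
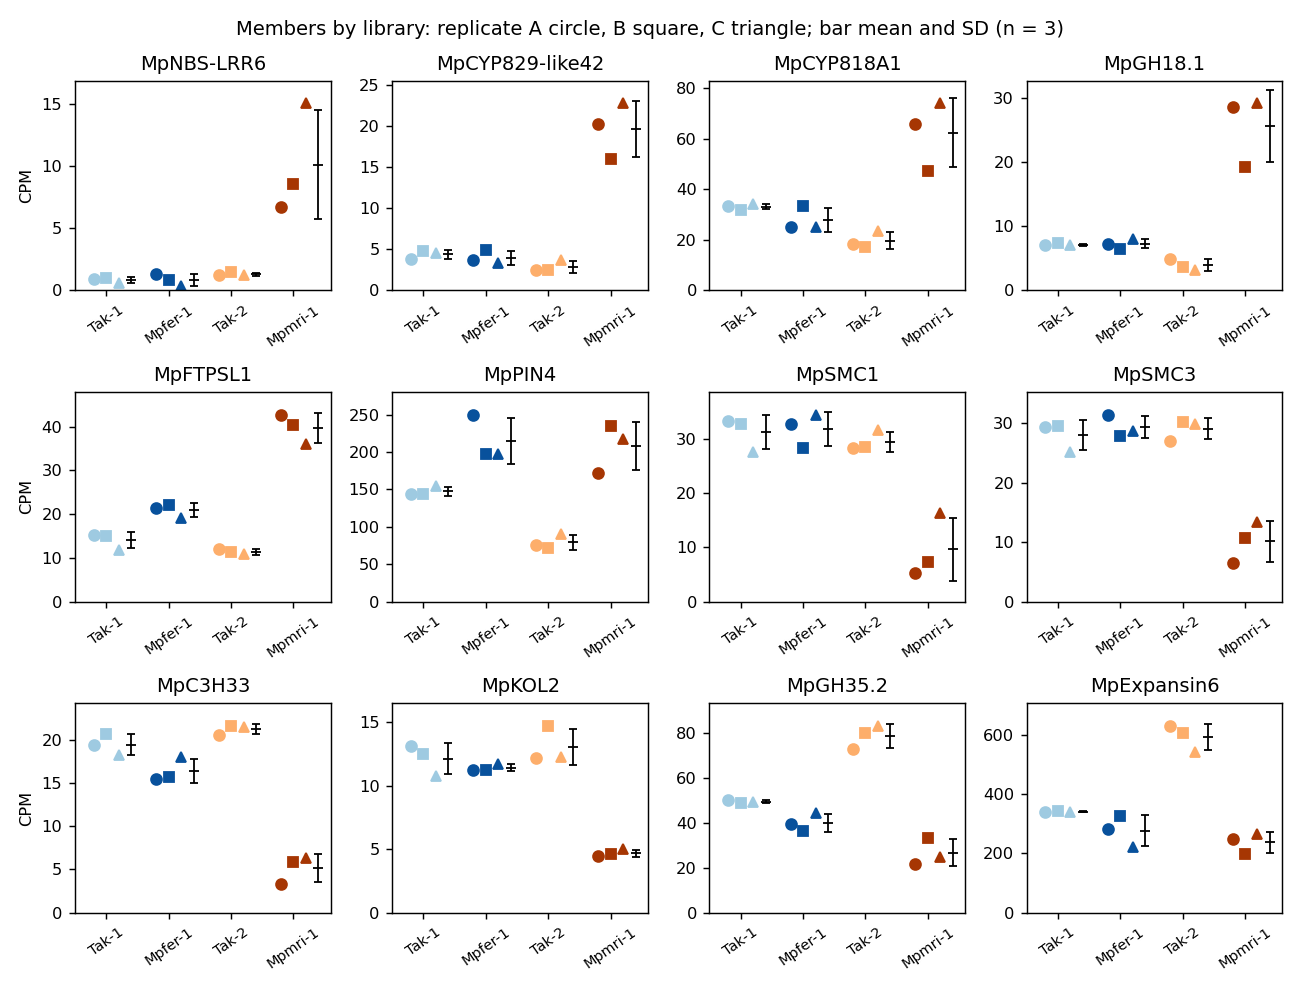
CPM (vertical axes, linear, from 0) of 12 members in each library of the 4 groups, with the mean and SD (n = 3) beside the points. MpNBS-LRR6, MpCYP829-like42 and MpGH18.1 stand apart in the Mpmri-1-labelled libraries, while for MpPIN4 and MpExpansin6 the Tak-2 libraries lie apart from the other 3 groups. MpNBS-LRR6 and MpCYP829-like42 met the minimum of 5 CPM only through the Mpmri-1-labelled libraries.

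MpSMC1 (Mp1g29090) and MpSMC3 (Mp5g09700) carry the names of the paired cohesin subunits, which hold sister chromatids together, and MpSMC4 (Mp5g06430) that of a condensin subunit, which compacts chromosomes at division. MpSMC1 had 5.28, 7.28 and 16.3 CPM in the Mpmri-1-labelled libraries and 28.3, 28.5 and 31.6 CPM in Tak-2, a 3.06-fold lower mean. Its male libraries lay between 27.6 and 34.5 CPM, so the other 3 groups overlapped one another and the Mpmri-1-labelled libraries lay below all of them.

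MpSMC3 had 6.398, 10.6 and 13.3 CPM, compared with 27.0, 30.2 and 29.9 CPM in Tak-2, with 25.1 to 31.4 CPM in the male libraries. MpSMC4 had 1.98, 2.93 and 5.53 CPM, compared with 9.12, 9.37 and 8.74 CPM in Tak-2, with 8.32 to 15.2 CPM in the male libraries. In each of these genes library A was the lowest and library C the highest of the 3. Of the 6 genes with an SMC symbol, a list drawn up after the values were seen, edgeR called all 6 lower in Mpmri-1, 5 without library Mpmri-1 A, Tak-2 B or Tak-2 C, and 1 (MpSMC2) lower in Mpfer-1, where library totals gave 0, DESeq2 gave 2 and leaving out 1 library gave 0 to 2. The difference between the effects was called for MpSMC1, MpSMC3 and MpSMC6, and for 2 to 4 of the 6 with 1 library left out. These counts include the members MpSMC1, MpSMC3 and MpSMC4, whose part the rule fixed. The non-members MpSMC2, MpSMC5 and MpSMC6 had edgeR log2 fold changes of -0.89, -0.33 and -1.16 in Mpmri-1. In Mpfer-1 theirs were -0.50, 0.015 and -0.34. Of all genes, 31.1% were called lower in Mpmri-1, 27.1% in Mpfer-1 and 16.3% for the difference. MpSMC1 and MpSMC3 met the rule under both other scalings, but not without each library in turn. With RNA from whole thalli, fewer cells of a type and less RNA per cell cannot be told apart.

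MpBromo8 (Mp3g08840), with a bromodomain, the fold that binds acetylated histones, had 4.19, 7.43 and 12 CPM in the Mpmri-1-labelled libraries and 21.0, 20.2 and 21.4 CPM in Tak-2, with 18.6 to 24.9 CPM in the male libraries. Of 12 bromodomain genes, listed after the values were seen, 8 were called lower and 0 higher in Mpmri-1, whereas 0 were called lower and 2 higher (4 on library totals) in Mpfer-1, and the difference was called for 9. MpBromo8, a member, is among the 12. Of all genes, 31.1% were called lower in Mpmri-1, 29.1% higher in Mpfer-1 and 16.3% lower for the difference. Without library Tak-1 C the difference was called for 5 and no gene was called in Mpfer-1; without Mpfer-1 A, Tak-2 A or Tak-2 B the difference was called for 6. The count called higher in Mpfer-1 was 1 without Mpfer-1 B, Tak-2 A or Tak-2 C, 3 without Mpmri-1 C and 4 without Mpmri-1 A. MpSUVR3 (Mp4g02650), of the SUV family of histone methyltransferases, had 4.72, 7.79 and 6.42 CPM against 17.6, 20.5 and 17.4 CPM, while Tak-1 had 9.39, 11.7 and 7.82 CPM and Mpfer-1 14.2, 12.3 and 14.6 CPM. Mpfer-1 thus lay above its wild type, at a ratio of 1.42, but edgeR did not call it (log2 fold change 0.34, SE 0.16). The Mpmri-1-labelled libraries lay below theirs, and Tak-2 was 1.92 times Tak-1. MpSUVR3 did not stay in the set under both other scalings, nor without each library in turn. Of 4 SUV genes tested, a list also made after the values were seen, 3 were called lower in Mpmri-1 and 1 in Mpfer-1. The 3 include the member MpSUVR3, whose part the rule fixed. Of all genes, 31.1% were called lower in Mpmri-1 and 27.1% in Mpfer-1.

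**Figure D4:**
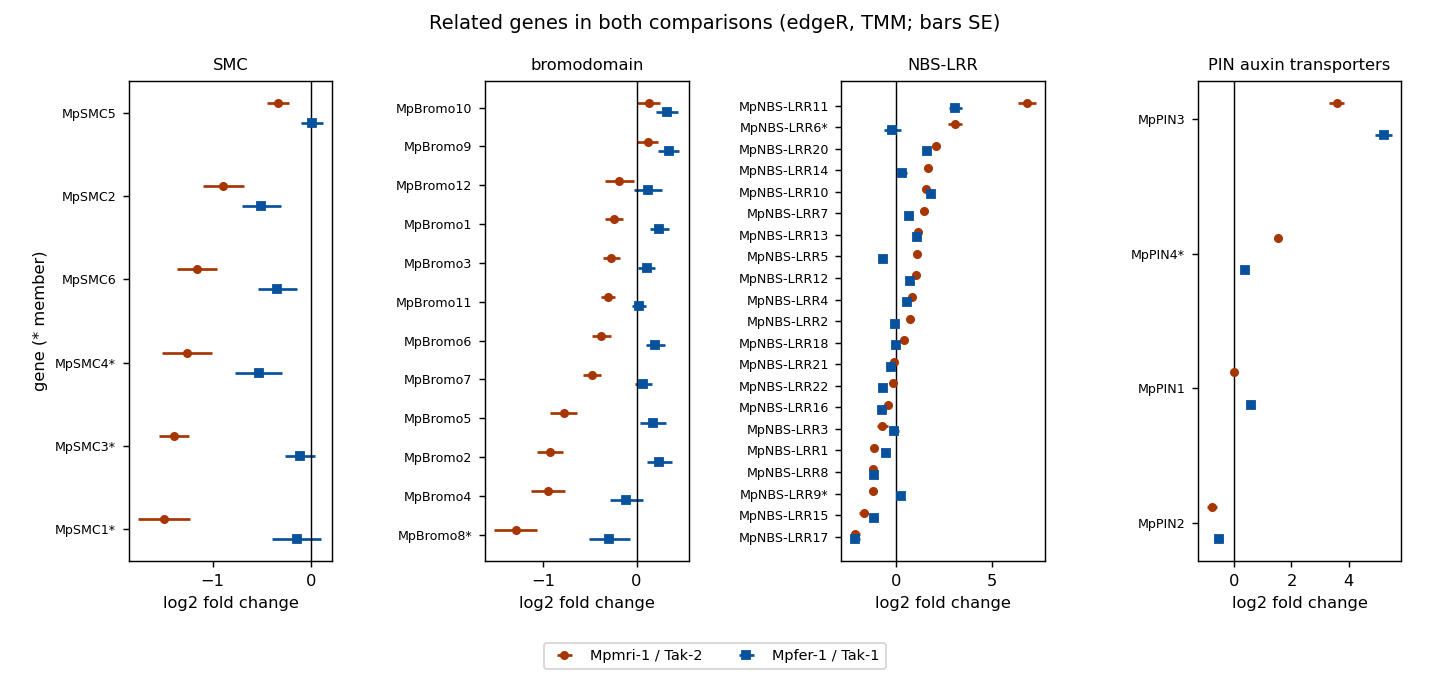
Log2 fold changes (edgeR after TMM, horizontal axes, bars SE) of the genes of 4 families in Mpmri-1 against Tak-2 (circles) and Mpfer-1 against Tak-1 (squares), with members starred. All 6 SMC genes lie left of 0 in Mpmri-1, and the members MpSMC1 and MpSMC3 lie at -1.50 and -1.40 there against -0.14 and -0.11 in Mpfer-1. The rule chose the starred members on both ratios, so this gap was required of them.

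MpC3H33 (Mp8g15710), of the CCCH zinc-finger genes, many of which bind RNA, had 3.37, 5.83 and 6.35 CPM in the Mpmri-1-labelled libraries and 20.6, 21.6 and 21.5 CPM in Tak-2, a 4.10-fold lower mean. Tak-1 had 18.3 to 20.6 CPM and Mpfer-1 15.5 to 18.01 CPM, so the 3 libraries lay apart from all others. MpC3H34 (Mp8g18820) had 3.18, 5.59 and 6.38 CPM against 13.5, 14.8 and 13.6 CPM. Of 32 such genes, a list also made afterwards, 13 were called lower and 5 higher in Mpmri-1, and 2 lower and 10 higher in Mpfer-1. Of all genes, 31.1% were called lower and 33.0% higher in Mpmri-1, and 27.1% and 29.1% in Mpfer-1.

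MpBHLH17 (Mp4g04920, synonym MpICE2), a basic helix-loop-helix factor, had 1.46, 1.57 and 1.63 CPM, compared with 4.93, 4.98 and 4.87 CPM in Tak-2. Tak-1 had more than Tak-2, at 8.76, 10.5 and 6.15 CPM, and Mpfer-1 had 6.27, 6.95 and 5.29 CPM. MpERF10 (Mp7g00860), of the AP2/ERF factors, had 7.97, 5.21 and 7.71 CPM against 15.8, 17.7 and 19.8 CPM, but Mpfer-1 had 6.995, 6.03 and 6.995 CPM, so the mutant lines overlapped and Tak-2 was the high group. MpTRIHELIX32 (Mp3g18590) had a ratio of 0.366, with 0.672 in Mpfer-1, close to the bound. MpHAT5 (Mp5g22790, 0.350) and MpMORF (Mp2g22520, 0.271) lay below all other 9 libraries.

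Of the cell wall and glycan genes, MpExpansin6 (Mp1g24230), one of the wall-loosening expansins, had 247, 198 and 266 CPM in the Mpmri-1-labelled libraries and 631.5, 606 and 544 CPM in Tak-2. Tak-1 had 339 to 343.5 CPM and Mpfer-1 221 to 327 CPM, so both mutant lines overlapped and Tak-2 was the high group. MpGH35.2 (Mp2g15660), of glycoside hydrolase family 35, which holds beta-galactosidases, had 21.8, 33.2 and 24.7 CPM against 72.6, 79.9 and 83.0 CPM, and 36.1 to 44.2 CPM in Mpfer-1. MpGH38.1 (Mp4g13950), of the alpha-mannosidase family, had 93.3, 129.6 and 118 CPM against 293, 286 and 319.9 CPM.

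MpFUT (Mp7g00620), a fucosyltransferase by its symbol, had 51.4, 40.1 and 72.5 CPM, compared with 151, 152 and 159 CPM in Tak-2, while Tak-1 had 151 to 156 CPM. Mpfer-1 was lower than Tak-1 as well, at 118, 87.7 and 106 CPM, a ratio of 0.677 that is just inside the window. All of MpExpansin6, MpGH35.2, MpGH38.1 and MpFUT were among the lower members that edgeR called lower in Mpfer-1 too. Expansin and carbohydrate-active enzyme genes (156 tested) gave 55 higher and 57 lower calls in Mpmri-1, and 49 and 56 in Mpfer-1. The shares of all genes were 33.0% and 31.1% in Mpmri-1, and 29.1% and 27.1% in Mpfer-1.

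Peroxidase and polyphenol oxidase genes, whose products oxidise phenolics in the wall and cell, supplied 4 lower members at low levels. MpPOD32, MpPOD118 and MpPOD87 had ratios of 0.361, 0.380 and 0.382, and MpPPO11 had 2.25, 1.91 and 1.27 CPM, compared with 5.02, 3.91 and 6.36 CPM in Tak-2. Peroxidase genes numbered 129 in the test, of which 64 were called lower and 32 higher in Mpmri-1, and 75 and 20 in Mpfer-1. Of 40 polyphenol oxidase genes, 26 were called lower in each line, where 31.1% (Mpmri-1) and 27.1% (Mpfer-1) of all genes were. In the higher direction the shares of all genes were 33.0% (Mpmri-1) and 29.1% (Mpfer-1). These families, like the cytochrome P450 and NBS-LRR genes, hold many close copies, and reads that fit several copies could have been split between them in the deposited counts.

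Among hormone-related symbols, MpKOL2 (Mp2g01950), of the KOL genes (named for likeness to ent-kaurene oxidase), had 4.45, 4.62 and 5.004 CPM in the Mpmri-1-labelled libraries, 12.2, 14.7 and 12.2 CPM in Tak-2, with 10.8 to 13.1 CPM in the male libraries. Its neighbour MpKOL3 (Mp2g01940) was not called in Mpmri-1 (26.7, 37.96 and 49.4 CPM against 32.3, 26.1 and 40.8 CPM), and MpKOL1 was called lower in both lines. MpGID1L8 (Mp5g03560), whose symbol marks likeness to the gibberellin receptor GID1 of flowering plants, had 32.0, 48.4 and 33.5 CPM against 105.5, 107 and 99.6 CPM, and 62.0 to 77.6 CPM in the male libraries. Of the 8 GID1-like genes, 3 were called lower and 2 higher in each line. MpNBS-LRR9 (Mp4g08270) was lower, at 1.98, 4.23 and 2.82 CPM against 7.44, 7.79 and 7.62 CPM, the opposite direction to MpNBS-LRR6. Of 21 NBS-LRR genes, 12 were called higher and 6 lower in Mpmri-1, and 7 each way in Mpfer-1. The shares of all genes were 33.0% higher and 31.1% lower, and 29.1% and 27.1%.

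Other gene lists gave few members or none. Beside their calls stand those of all genes tested: 33.0% higher and 31.1% lower in Mpmri-1, and 29.1% and 27.1% in Mpfer-1. The abscisic acid list (12 genes tested), the desiccation list (70) and the MYB list (44) held no member. The desiccation list was called higher for 59 genes in Mpmri-1 and 61 in Mpfer-1, and the abscisic acid list for 7 in each. The MYB list had 11 higher and 19 lower calls in Mpmri-1, and 9 and 8 in Mpfer-1. The receptor-like kinase list (88) held 1 member, with 28 higher and 30 lower calls in Mpmri-1 and 16 and 34 in Mpfer-1. The terpene synthase list (23) had 11 higher and 4 lower calls in Mpmri-1, and 8 and 6 in Mpfer-1. The basic helix-loop-helix (37), AP2/ERF (20) and TRIHELIX (35) lists held 1 lower member each, with 13, 4 and 15 genes called lower and 8, 12 and 8 called higher in Mpmri-1. In Mpfer-1 they had 14, 1 and 6 lower calls and 9, 10 and 11 higher calls.

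**Figure D5:**
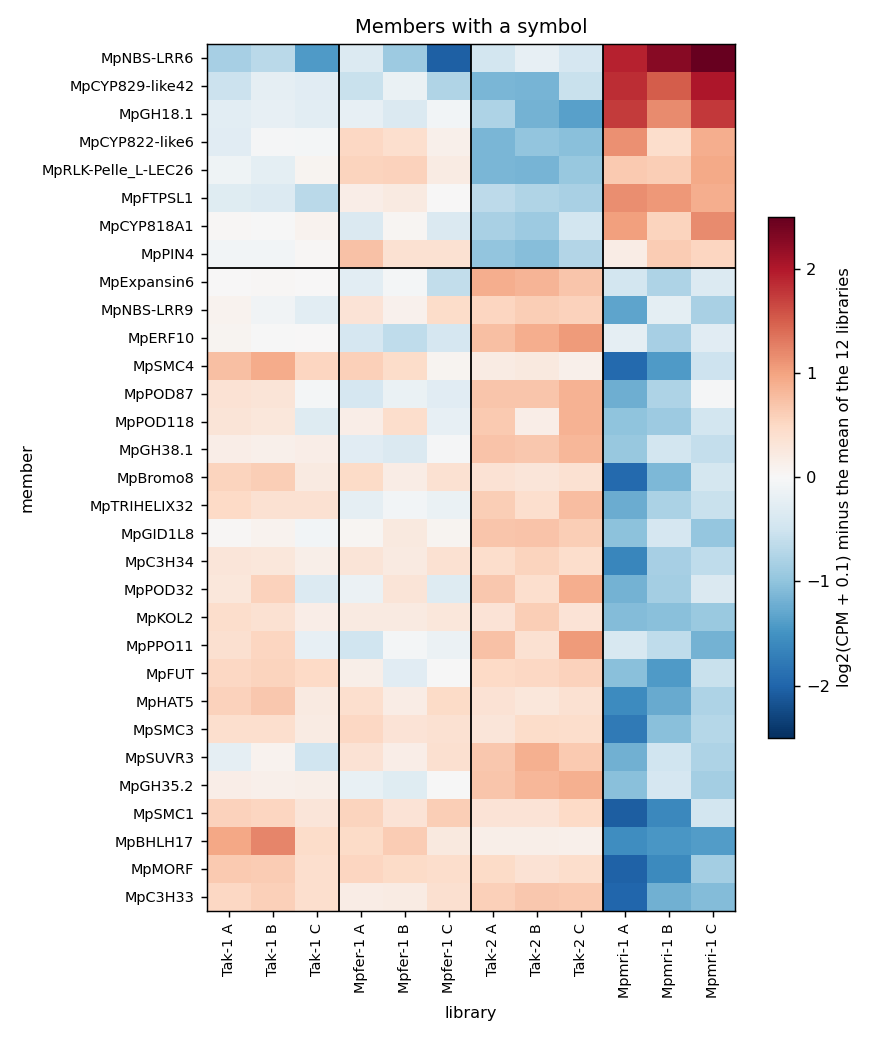
The 31 members with a symbol (rows, higher members above the line) in the 12 libraries (columns), coloured by log2(CPM + 0.1) minus the mean over libraries. The 3 Mpmri-1-labelled libraries are red in the 8 upper rows and blue or pale in the 23 lower rows, and library A is often the darkest blue.

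The largest difference in the set was in a gene without a symbol. Mp2g21700 had 0.449, 0.119 and 0.614 CPM in the Mpmri-1-labelled libraries, which are 12, 4 and 20 counts, against 12.2, 12.5 and 14.5 CPM in Tak-2, or 313, 357 and 438 counts. Tak-1 had 14.3, 13.4 and 10.4 CPM and Mpfer-1 18.5, 16.4 and 21.4 CPM. It was 33.2-fold lower (edgeR log2 fold change -4.93, SE 0.31), and Mpfer-1, at 1.48 times Tak-1, lay near the upper edge of the window.

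Among the lower members without a symbol, the next were Mp2g12290 with 5.13, 7.25 and 11.1 CPM, compared with 50.6, 49.4 and 53.7 CPM in Tak-2, Mp3g17210 (5.16-fold lower), Mp4g03340 (4.59-fold), Mp5g19970 (4.37-fold) and Mp1g01450 (4.34-fold). Mp1g01450 was also abundant, with 59.1, 99.1 and 88.1 CPM, compared with 355, 364 and 350.2 CPM in Tak-2, with 187 to 292 CPM in the male libraries. All of these lay below the other 9 libraries. The most abundant lower member, Mp4g20690, had 252, 307 and 188 CPM against 766, 755 and 650.0 CPM, but overlapped Mpfer-1 at 281, 300.1 and 412 CPM. Mp3g22960 had 130.2, 219 and 107 CPM against 595, 611 and 535 CPM, and 224 to 309.5 CPM in Mpfer-1.

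Within the Mpmri-1-labelled libraries, library A was the lowest of the 3 in 86 of the 98 lower members and library C the highest in 71. In the 7042 genes of the comparison, library A was the lowest in 68.1% and library C the highest in 63.2%. After TMM, library A was the lowest in 74 of the 98, against 45.6% of the 7042, and it was the highest in 19 of the 24 higher members, against 32.6%. Library A also had the lowest TMM factor. Without it, edgeR called 24 of the 24 higher and 97 of the 98 lower members in Mpmri-1, and 24 and 88 for the difference between the effects.

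Marker genes of other cell types were measured for the same libraries. The 5 oil body genes summed to 96.8 to 122 CPM in the Mpmri-1-labelled libraries, 69.2 to 82.3 in Tak-2, 127 to 164.5 in Mpfer-1 and 63.4 to 89.7 in Tak-1. MpC1HDZ held the largest part of these sums. edgeR called 3 of the 5 higher in each line, where 33.0% (Mpmri-1) and 29.1% (Mpfer-1) of all genes were. MpABCG1 and MpERF13 were called in neither, and MpERF13 had log2 fold changes of 0.32 in Mpmri-1 and -0.39 in Mpfer-1. The 2 gemma cup genes summed to 23.7 to 29.5 CPM and 25.7 to 28.7 CPM in the Mpmri-1-labelled libraries and Tak-2, and to 35.96 to 50.6 and 29.1 to 38.3 in Mpfer-1 and Tak-1. MpKAR made up most of these sums (edgeR log2 fold change -0.10, adjusted p 0.54 in Mpmri-1), while the other of the 2, MpGCAM1, a MYB factor gene of gemma cup formation, was at 3.37, 2.515 and 2.70 CPM in the Mpmri-1-labelled libraries and at 0.391, 0.386 and 0.331 CPM in Tak-2 (log2 fold change 3.09, SE 0.27, adjusted p 1.35e-06). MpGCAM1 was at 2.13 to 3.05 CPM in Tak-1 and 4.05 to 6.10 CPM in Mpfer-1, so Tak-2 lay below the other 3 groups. The air pore gene MpNOP1 had 66.6 to 87.7 and 65.0 to 68.7 CPM in the Mpmri-1-labelled libraries and Tak-2, and 77.1 to 87.3 and 62.8 to 77.4 CPM in Mpfer-1 and Tak-1. Of the 3 genes listed for reproductive organs, MpPRM had at most 0.106 CPM and MpDUO1 at most 1.07 CPM in any library, and MpRKD had 64.9, 82.7 and 99.1 CPM in the Mpmri-1-labelled libraries against 143, 142 and 142.5 CPM in Tak-2 (edgeR log2 fold change -0.67, SE 0.088, adjusted p 4.26e-05). MpRKD is known in Marchantia for roles in germ cells and gemma cup formation. No symbol matched the rhizoid marker, so the rhizoid part of the tissue was not checked. The part of these markers in the members' values was not tested.

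Members were spread over all 8 numbered chromosomes, from 0.976% of the genes meeting the other bounds on chromosome 1 to 3.16% on chromosome 5. By locus number, 12 members formed 6 pairs with at most 1 gene between them, and no 3 members followed each other. Mp4g03340 and its neighbour Mp4g03350 were 0.218 and 0.278 times Tak-2, at 1.21 and 1.10 times Tak-1 in Mpfer-1. Mp8g02590 and Mp8g02600 were both higher (3.04 and 3.48), whereas Mp2g18980 was higher (2.67) beside Mp2g18990, which was lower (0.397). Mp1g09390 and Mp1g09400 (0.369 and 0.372), Mp3g01080 and Mp3g01090 (0.399 and 0.356), and Mp8g03330 and Mp8g03350 (0.285 and 0.387) were lower.

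Several transcript models were listed for 1 of the 24 higher and 23 of the 98 lower members. The share of the leading model in the gene's counts differed by at least 10 points between Tak-2 and Mpmri-1 in 8 of the 23. In Mp2g12290 the leading model held 67.9% in Tak-2 and 92.2% in the Mpmri-1-labelled libraries, 99.3% in Tak-1 and nearly all counts in Mpfer-1. Its other models summed to 17.5, 15.8 and 16.2 CPM in Tak-2 and to 1.10, 0.00042 and 0.869 CPM in the Mpmri-1-labelled libraries, and the leading model had a mean of 34.7 CPM in Tak-2 but 7.15 CPM in the latter. In Mp3g13070 the leading model held 98.1% in Tak-2 and 74.2% in the Mpmri-1-labelled libraries, but library A alone had 0.0093% and B had 81.0% and C nearly all counts, at 1.68 to 3.13 CPM for the whole gene. These shares are estimates of how reads divide between models and carry no interval.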

How the data were processed

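The deposited values are estimated counts, made by the authors for 23399 transcript models in each of the 12 libraries and not normalized across them. Not given in the sources used here are the quantifier, its use of the strand, and the build and annotation behind the table. FastQC, fastp and DESeq2 are named, without role or version, in the submitters' processing notes. Per the labels' protocols, libraries were made with a stranded mRNA kit.

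Estimated counts were summed to 18336 genes by identifier stem. CPM uses the column totals (25548038 to 35313222). Sums were rounded for the tests. edgeR 4.0.16 in R 4.3.3 fitted 1 mean per group over all 12 libraries (TMM, default low-count filter, quasi-likelihood F test, 8 residual degrees of freedom), with Benjamini-Hochberg adjustment over 14044 genes and a threshold of 0.05. SE is the log2 fold change over the square root of F. Alternatives were DESeq2 1.42.0, limma 3.58.1 voom, totals without TMM, no filter, the replicate block, other bounds and each library left out. The test script was tested on simulated data.

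Symbols came from the reference table of assembly MpTak2_v7.1, joined by locus number: 121 members had a counterpart, 108 of them with an equal number of models, and 31 a symbol. Equal numbers of models were found for 90.2% of all joined genes, against 76.3% with the numbering shifted by 1 gene. No coordinates are printed.

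The members and lists were chosen with earlier results of these data known. List patterns were tightened after the files were read, and the SMC, bromodomain, SUV, C3H, GID1-like and KOL lists were added then. Named genes are the targeted genes and, in each direction, the 6 most extreme ratios, the 4 highest levels, up to 4 members per list, those at the bounds and the 2 largest changes of leading model. MpFUT, MpHAT5, MpMORF, MpSMC2, MpSMC5, MpSMC6, MpPIN1, MpPIN2, MpPIN3, MpKOL1, MpKOL3, the marker genes and the members of the neighbouring pairs were named after their values were seen.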

Additional observations from a re-analysis of the deposited data

Results flagged for a closer look

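Both targeted genes differed between the comparisons in edgeR's test of the difference between the effects (Mpmri-1 against Tak-2, minus Mpfer-1 against Tak-1). For MpMRI (Mp7g17560) the difference was 1.46 on the log2 scale (adjusted p 3.6e-06), with the higher level in the libraries labelled as its knockdown in 3 of 3 libraries. For MpFER (Mp4g15890) it was 0.87 (adjusted p 0.000209), with the lower level in 3 of 3 Mpfer-1 libraries.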

How the results depend on the processing

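The size of the set depended on the scaling and the bounds. The rule gave 24 higher and 98 lower genes on library totals, 82 and 46 after TMM, and 84 and 47 with DESeq2 size factors. It gave 14 and 33 with bounds of 3 and 1/3, 10 and 62 with a narrower Mpfer-1 window (0.8 to its reciprocal), and 16 and 65 with a minimum of 20 CPM. Leaving out 1 library at a time gave 19 (without Mpmri-1 A) to 33 (without Mpfer-1 A) higher genes and 53 (without Mpmri-1 A) to 200 (without Mpmri-1 C) lower genes.

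Members called in Mpfer-1 against Tak-1 numbered 57, 31 on library totals without TMM, and 36 (without Mpfer-1 A) to 70 (without Mpmri-1 C) with 1 library left out. In the main run, 29.1% of all genes were called higher and 27.1% lower in that contrast. In Mpmri-1 against Tak-2, 121 or 122 of the 122 members were called under every alternative run. For 57 named genes, 741 of 741 values in that contrast kept direction and call. The rule chose the members on that contrast, so nothing is read from these counts. In Mpfer-1, 49 of 741 lost and 26 gained the call and 0 reversed, and the cause was not tested.

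Replicates share the letters A to C across groups. Deviations of same-letter libraries correlated between 0.0519 and 0.193, not above 0.1 in every pair, and the main test did not take the letters as pairs. Yet the same letter was the best match for every Tak-1 library and for Tak-2 A and C, while Tak-2 B matched Mpmri-1 A best. Whether same-letter libraries shared a batch was not tested. With the replicate block, 122 members were called in Mpmri-1, 56 in Mpfer-1, 113 for the difference and 65 in Tak-2 against Tak-1, against 122, 57, 112 and 65 without it. Without the block, the shares of all genes called higher were 33.0%, 29.1%, 21.0% and 17.1% in that order. Those called lower were 31.1%, 27.1%, 16.3% and 18.0%. All of these contrasts entered the rule, so nothing is read from the counts. Depth limits the lowest members most: the smallest count behind a member in a Mpmri-1-labelled library was 4.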
